A study of Mus musculus with 8 samples.

Results

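The ETS family comprises transcription factors that bind DNA through a shared domain recognising a core of the letters GGAA. The 10 members described here are Ets1, Ets2, Erg, Fli1, Gabpa, Elk3, Elf1, Etv4, Etv5 and Etv6, taken by gene symbol from the 19493 endogenous genes of a deposited count table, and all 10 were present. Ets2, Erg and Gabpa lie in the stretch of mouse chromosome 16 that is duplicated in Dp1Tyb mice, a model of Down syndrome, so their copy number was 3 in Dp1Tyb and 2 in wild-type (WT) cells. The other 7 members lie outside it.

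RNA sequencing had been carried out on mouse embryonic fibroblasts (MEFs), cultured connective tissue cells, from 4 WT embryos and 4 Dp1Tyb littermates. The strain background is named C57BL/6J.129P2 for both groups, and the study's authors state that the mice had all been backcrossed to C57BL/6JNimr. Dp1Tyb cells carried the allele Dp(16Lipi-Zbtb21)1TybEmcf on the same background as WT cells. All embryos were at E14.5, and both groups were grown in the same serum-containing medium, passaged and removed from the plates with trypsin before RNA was extracted. The embryos had lost their heads and inner organs before culture, so the cells are a mixture from the rest of the body. Each culture was derived from its own embryo, and the p-values measure the spread between these cultures.

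ERCC spike-ins, synthetic transcripts added in equal amount to equal numbers of cells, allow expression to be set against an external standard (spike-in scaling). Relative scaling instead sets each library against its own endogenous genes, so a change in RNA per cell drops out. The question was whether the extra copy of 3 family genes raised their mRNA and whether the family genes with normal copy number differed as well. Libraries held 17698900 to 26471758 counts. Endogenous RNA per spike-in varied widely within both groups, from 0.713 to 1.19 in WT and from 0.688 to 1.31 in Dp1Tyb, in units of the mean library. Of the 16470 genes tested, the log2 fold changes had a median of 0.11 after spike-in scaling against 0.01 after relative scaling. All 10 fibroblast markers were detected in every library. Both libraries numbered 1 had the lowest scores on the first principal component, -55.9 for Dp1Tyb and -28.9 for WT, which held 35.5% of the variance, and values without them are given where they matter. Xist was counted 36188 times in WT replicate 2 and 38867 times in Dp1Tyb replicate 1 and at most 60 times elsewhere, so each group held 1 library with Xist. Y-linked counts were 81 and 75 in these libraries and 5376 to 7421 elsewhere.

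ETS proteins act mostly downstream of growth factor receptors and the ERK kinase, which phosphorylates several of them. Ets1 and Ets2 are close relatives that activate genes of matrix turnover. Erg and Fli1 form another closely related pair and are best known from endothelial and blood cells, and Erg is also present in forming cartilage. Gabpa is the DNA-binding subunit of GABP, which works with Gabpb1 or Gabpb2 and activates genes of the mitochondrial respiratory chain. Elk3 is a ternary complex factor that acts with Srf, Etv4 and Etv5 are targets and effectors of fibroblast growth factor signalling, Elf1 is widely expressed, and Etv6 is a repressor.

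Positions are those of GENCODE M21 on GRCm38. Ets2 is at chr16:95702075-95721051 on the plus strand and Erg at chr16:95359169-95586593 on the minus strand. These neighbours are 115481 bp apart with 0 annotated genes between them. Ets1 and Fli1 also lie close together on opposite strands of chromosome 9, at chr9:32636221-32757820 and chr9:32422204-32542861, with a gap of 93359 bp that holds 2 annotated genes, 0 of them protein-coding. That pair is not duplicated, so each duplicated gene of the Ets2 and Erg pair has its closest relative at normal dosage. Gabpa is at chr16:84834925-84863779 on the plus strand. Etv5 also lies on chromosome 16, at chr16:22381309-22439719, but 53.1 Mb before the duplication begins. The remaining members are Elk3 on chromosome 10, Elf1 on chromosome 14, Etv4 on chromosome 11 and Etv6 on chromosome 6.

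RefSeq promoter windows on GRCm38.p6 were found for 7 members, all but Ets1, Fli1 and Etv4. The 250 bases before the start site were searched on both strands for GGAA, which reads TTCC on the other strand, and for the longer CCGGAAG, which contains GGAA and reads CTTCCGG on the other strand. GGAA occurred in 93.4% of all 32851 windows and CCGGAAG in 6.91%. The Gabpa window held 5 GGAA cores, and 18% of windows held as many. It also held 1 CCGGAAG match, 93 bases before the start, and no other window of a member held that match. The Ets2 window held 1 core and lies inside an exon of another Ets2 transcript. The window of the outermost Erg start held 0 cores, and the inner Erg starts had 4 and 2. The Gabpa and Erg sequences are shown because they are the extremes among the duplicated genes, with the cores in capitals. The Gabpa stretch, chr16:84835024-84835123 on the plus strand, is limited to the 100 bases outside exons of coding transcripts, and the Erg stretch is chr16:95586594-95586843 on the minus strand.
Gabpa: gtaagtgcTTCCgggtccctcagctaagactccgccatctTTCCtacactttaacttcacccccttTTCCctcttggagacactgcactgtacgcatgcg
Erg: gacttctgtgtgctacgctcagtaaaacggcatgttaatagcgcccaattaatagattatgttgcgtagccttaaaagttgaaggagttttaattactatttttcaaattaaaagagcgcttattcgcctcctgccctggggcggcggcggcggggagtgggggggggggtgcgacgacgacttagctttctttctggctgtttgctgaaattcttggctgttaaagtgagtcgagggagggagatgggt
A match of these letters is a description of the window and was not tested as a binding site.

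Levels of the 10 members were compared per length, as RPKM, read counts scaled for exon length and library size, with relative scaling, over all 8 libraries. Elk3 had the highest mean level, 28.3 ± 4.72 (SD, n = 8), followed by Gabpa at 21.4 ± 5.2 and Ets2 at 15.5 ± 4.58. Etv6 and Ets1 had the same mean level of 12.9, Elf1 had 11.2, and Etv5 had 9.06 ± 1.02. Fli1 at 4.51 ± 0.697, Etv4 at 3.93 ± 0.675 and Erg at 1.78 ± 0.65 were the lowest. Neighbours in this order overlapped in their ranges over the libraries, with the exception of Etv5, which was above Fli1 in every library. Erg was counted only 75 to 211 times per library, so its values carry more counting error than those of the other members.

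**Figure D1:**
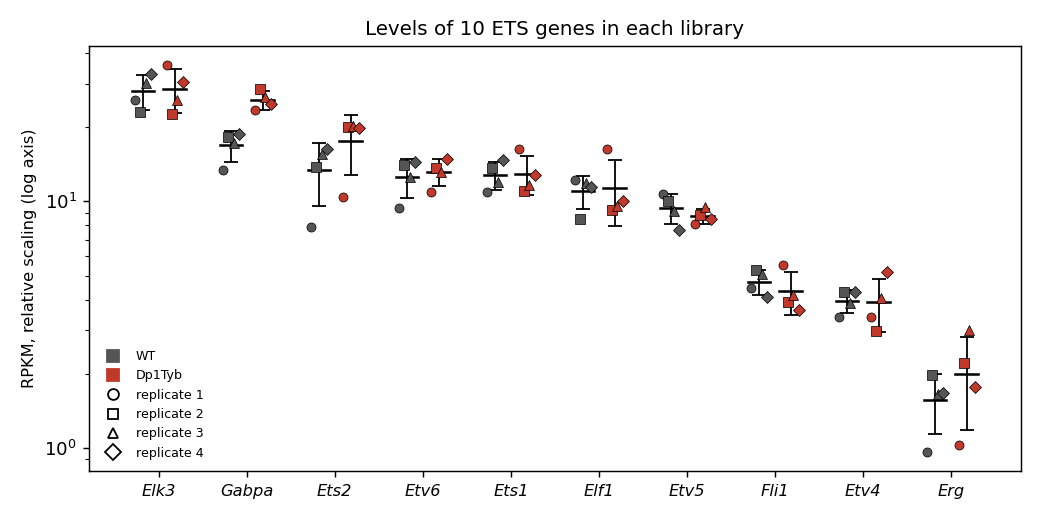
RPKM of the 10 ETS genes on a log axis, in order of their mean, with 1 point per library (WT grey, Dp1Tyb red, shape for the replicate number) and the mean ± SD of each group. Elk3 is highest at a mean of 28.3 and Erg lowest at 1.78, and among these genes Gabpa alone has Dp1Tyb libraries that all lie above the WT libraries.

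Gabpa, the DNA-binding subunit of GABP, was higher in every Dp1Tyb library than in any WT library with relative scaling. In the order of the replicate numbers 1 to 4, used throughout, WT libraries held 1595, 2172, 2050 and 2234 normalised reads of Gabpa, and Dp1Tyb libraries held 2783, 3399, 3136 and 2942. The group means were 2013 ± 289.0 and 3065 ± 265.4 (SD, n = 4). The groups did not overlap, and WT replicate 1 was the lowest library of all. With relative scaling this was a log2 fold change of 0.61 ± 0.12 (SE), or 1.52-fold (95% confidence interval 1.26 to 1.85), with an unadjusted p of 0.000653 in edgeR's quasi-likelihood test. Its adjusted p over all tested genes was 0.331, so Gabpa was not called by this test. DESeq2 with the same scaling gave the same log2 fold change of 0.61 and called it at an adjusted p of 0.00973, and called 0.316% of all tested genes.

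With spike-in scaling the Gabpa groups overlapped. The values were 1892, 1916, 1462 and 2613 in WT, and 3352, 2337, 3301 and 3865 in Dp1Tyb. Dp1Tyb replicate 2, the library with the least RNA per spike-in, fell below WT replicate 4, and the other 3 Dp1Tyb libraries exceeded all of WT. This gave 0.71 ± 0.32 (SE) as the log2 fold change (unadjusted p = 0.026, adjusted p = 1.00 in edgeR's test).

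The exons of Gabpa overlap those of Atp5j on the opposite strand by 397 bp of 5687 bp. Atp5j, a subunit of the mitochondrial ATP synthase, is duplicated too, and RefSeq places a start of Atp5j 148 bp from that of Gabpa, facing the other way. Its relative normalised counts were 1447 to 1670 in WT and 2114 to 3185 in Dp1Tyb, with no overlap and a log2 fold change of 0.66 (unadjusted p = 0.000825 in edgeR's test). The strand setting of the authors' counting is not given in the sources used here, so reads of the shared stretch cannot be assigned to either gene.

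Ets2, an activator of genes of matrix turnover, was highest in Dp1Tyb replicates 2 to 4 with relative scaling. The groups overlapped through Dp1Tyb replicate 1. The relative normalised read counts of Ets2 were 955.1, 1670, 1882 and 1967 in WT, and 1254, 2407, 2433 and 2391 in Dp1Tyb. Dp1Tyb replicate 1 was below 3 of the 4 WT libraries, and WT replicate 1 was the lowest of all. The means were 1618 ± 459.6 and 2121 ± 578.5 (SD, n = 4), and the log2 fold change was 0.39 ± 0.26 (SE), or 1.31-fold (0.876 to 1.96). Its unadjusted p was 0.165 and its adjusted p 0.999 in edgeR's test, so it did not pass. Each Dp1Tyb library was above the WT library of its number, though the labels give these numbers no meaning. With the number as a block in edgeR's test the unadjusted p was 0.00138 and the adjusted p 0.209, which did not pass either. With spike-in scaling the groups overlapped through Dp1Tyb replicates 1 and 2, which fell below WT replicate 4. The values were 1133, 1474, 1342 and 2301 in WT, and 1510, 1655, 2561 and 3142 in Dp1Tyb. This gave a log2 fold change of 0.50 ± 0.32 (unadjusted p = 0.111).

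With relative scaling the Ets2 estimate moved most with the libraries numbered 1. Without Dp1Tyb replicate 1 the relative log2 fold change of Ets2 was 0.57 (unadjusted p = 0.0234 in edgeR's test), and without WT replicate 1 it was 0.21. Without both it was 0.39 again (unadjusted p = 0.00329, adjusted p = 0.450), and the 3 remaining Dp1Tyb libraries were all above the 3 remaining WT libraries. Leaving out both was chosen after seeing the data. It also removes the only Dp1Tyb library with Xist and keeps the WT library with Xist, replicate 2. The part of this in the estimates was not tested. With spike-in scaling the estimate was 0.53 without both, and it moved most with the libraries numbered 4, to 0.29 without Dp1Tyb replicate 4 and 0.76 without WT replicate 4 (unadjusted p = 0.0311 in edgeR's test). The same libraries also stood out on other genes: Jun, a partner of ETS proteins in the AP-1 complex, had its highest relative normalised counts there, 5615 in WT replicate 1 and 8728 in Dp1Tyb replicate 1, against 1732 to 3397 elsewhere. Timp1, an inhibitor of matrix proteases, had its lowest there, 2450 and 3643 against 5820 to 8570. The part of this difference between libraries in the Ets2 result was not tested.

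Erg, an endothelial and cartilage factor, was measured at a much lower level, and 2 of its 4 Dp1Tyb libraries were above all WT libraries with relative scaling. Its relative normalised read counts were 70.02, 142.7, 119.8 and 120.7 in WT, and 74.33, 160.3, 217.0 and 128.6 in Dp1Tyb. The groups overlapped, both libraries numbered 1 were again the lowest, and Dp1Tyb replicate 3 was the highest. The log2 fold change of Erg was 0.35 ± 0.33 (SE), or 1.28-fold (0.772 to 2.11), with an unadjusted p of 0.304 in edgeR's test. With spike-in scaling the values were 83.07, 125.9, 85.41 and 141.1 in WT, and 89.53, 110.2, 228.4 and 169.0 in Dp1Tyb, with a log2 fold change of 0.45 ± 0.39 (unadjusted p = 0.251). Without Dp1Tyb replicate 3 these estimates were 0.09 and 0.18, the lowest found when leaving out 1 library. The relative estimate also fell to 0.18 without WT replicate 1, and it rose to 0.58 without Dp1Tyb replicate 1.

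**Figure D2:**
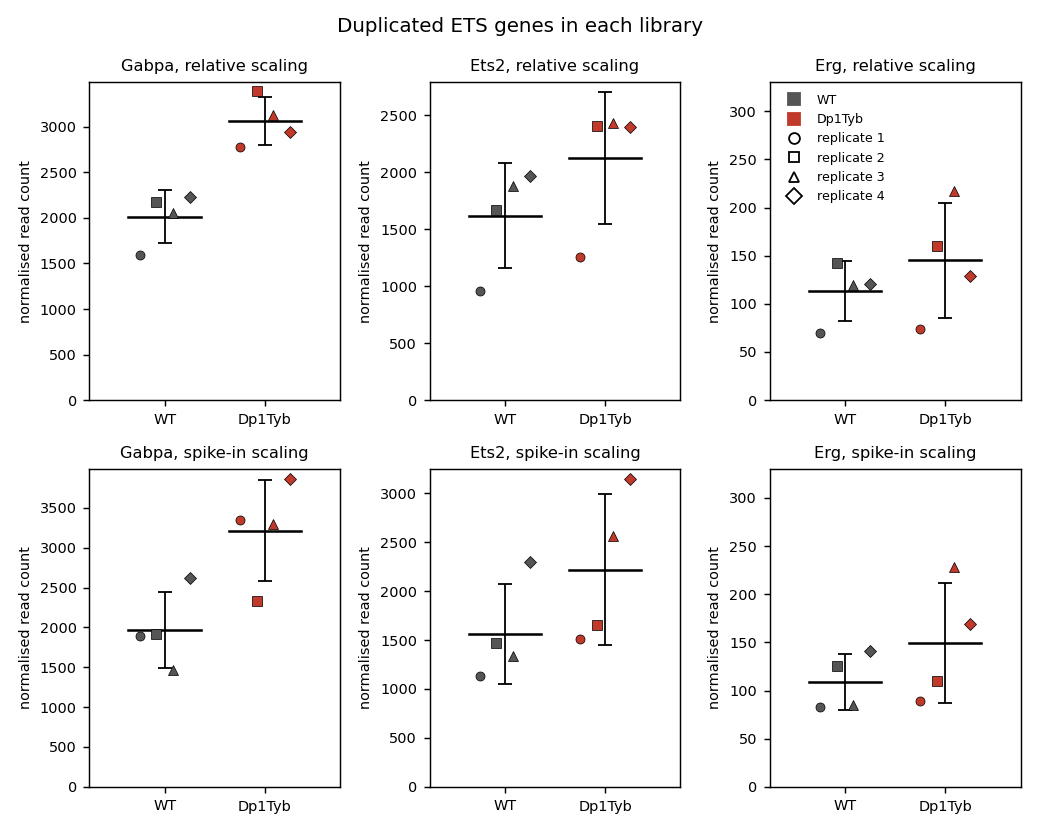
Normalised read counts of Gabpa, Ets2 and Erg (y axis, from 0) in WT (grey) and Dp1Tyb (red) libraries, with relative scaling above and spike-in scaling below. Points are libraries with the shape giving the replicate number, lines are the mean ± SD of 4 libraries. Only Gabpa with relative scaling has groups that do not overlap, and the lowest Ets2 and Erg values with relative scaling are those of the libraries numbered 1.

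EdgeR called 0 of the 10 members at an adjusted p under 0.05 in either scaling, against 0.0121% of all tested genes after spike-in and 0.0182% after relative scaling. DESeq2 called 0 of 10 after spike-in scaling, against 2 of all 16470 tested genes. After relative scaling it called Gabpa alone of the 10, against 0.316% of all tested genes. In edgeR's test without the block, 1 of the 10, Gabpa, was higher in Dp1Tyb at an unadjusted p under 0.05. This held in both scalings, and 0 of the 10 were lower. Of all tested genes, 0.85% were higher by that measure with spike-in scaling (1.17% in either direction) and 1.74% with relative scaling (4.27% in either direction). With relative scaling 1 of 10 members had Dp1Tyb libraries all above WT, against 1.64% of tested genes and 42% of the 112 tested genes of the duplication. With spike-in scaling this held for 0 of 10, against 0.285% of tested genes and 14.3% of the duplicated genes.

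Compared with the copy number ratio, a fold change of 1.5 or 0.58 on the log2 scale, none of the duplicated members departed. In edgeR's test against that fold, the p of Gabpa was 0.863 with relative and 0.702 with spike-in scaling, that of Ets2 was 0.47 and 0.799, and that of Erg was 0.492 and 0.739, all unadjusted. The intervals of Ets2 and Erg also included no change. The median relative log2 fold change of the 112 tested duplicated genes was 0.54. From the highest, Gabpa ranked 47 among these, Ets2 75 and Erg 79.

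Ratios of counts within a library need no scaling, and each duplicated member was set against a related gene of normal copy number. Gabpa over Gabpb1, its partner subunit, was 2.60, 2.55, 2.39 and 2.51 in WT, and 4.33, 4.53, 4.0 and 3.75 in Dp1Tyb. Every Dp1Tyb library was above every WT library, with tight values in both groups. Mean log2 ratios were 1.33 ± 0.05 for WT against 2.05 ± 0.12 for Dp1Tyb (SD, n = 4), a difference of 0.72 or 1.65-fold. The two-sided exact permutation test over 70 assignments gave p = 0.0286, the smallest it can give, and 0.0857 after Benjamini-Hochberg adjustment over the 3 ratios tested, which did not pass.

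Ets2 over Ets1 was 0.493, 0.693, 0.885 and 0.757 in WT, and 0.435, 1.23, 1.18 and 1.06 in Dp1Tyb. In 3 of 4 Dp1Tyb libraries Ets2 reads outnumbered those of Ets1, which happened in 0 WT libraries, while Dp1Tyb replicate 1 had the lowest ratio of all. The difference in log2 ratio was 0.39 (exact permutation p = 0.371, adjusted p = 0.371). Without Dp1Tyb replicate 1 it was 0.74 (exact permutation p = 0.0571), and without WT replicate 1 it was 0.22 (exact permutation p = 0.686).

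Erg over Fli1 was 0.218, 0.373, 0.324 and 0.407 in WT, and 0.185, 0.564, 0.713 and 0.488 in Dp1Tyb. Again 3 of 4 Dp1Tyb libraries were above all WT libraries and Dp1Tyb replicate 1 was the lowest. The difference in log2 ratio was 0.44 (exact permutation p = 0.371, adjusted p = 0.371). Without Dp1Tyb replicate 1 it was 0.85 (exact permutation p = 0.0286, the smallest possible with 7 libraries), whereas without Dp1Tyb replicate 3 it was 0.20 (exact permutation p = 0.629) and without WT replicate 1 it was 0.25 (exact permutation p = 0.657). Without both libraries numbered 1 the differences in log2 ratio were 0.58 for Ets2 over Ets1 and 0.66 for Erg over Fli1. Each had an exact permutation p of 0.1, the smallest possible with 6 libraries. Both genes of a pair enter these differences. The relative log2 fold changes there were 0.39 for Ets2 and -0.18 for Ets1, and 0.41 for Erg and -0.3 for Fli1. Without Dp1Tyb replicate 1 alone they were 0.57 for Ets2 and -0.12 for Ets1, and 0.58 for Erg and -0.27 for Fli1.

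**Figure D3:**
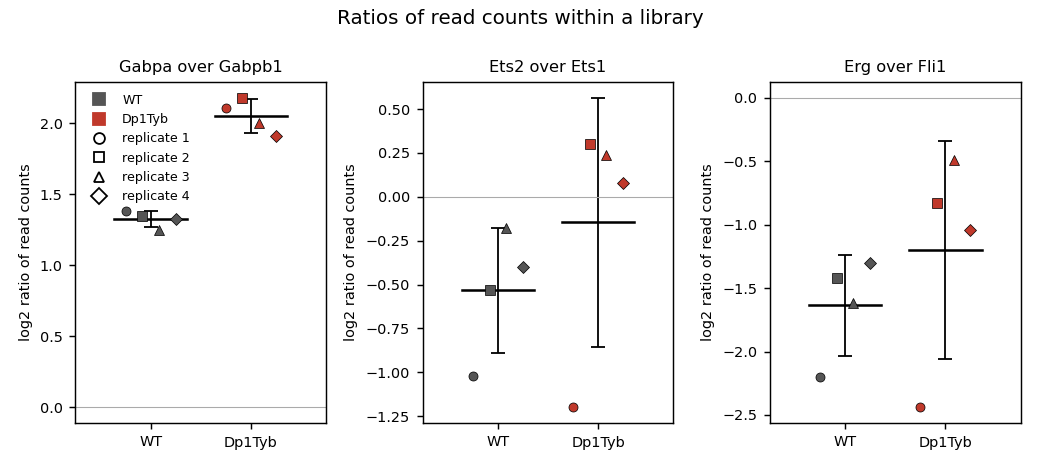
Log2 ratio of read counts within a library (y axis) for Gabpa over Gabpb1, Ets2 over Ets1 and Erg over Fli1, by genotype, with 1 point per library and the mean ± SD of 4. The Gabpa panel separates the genotypes by 0.72, while in the other panels Dp1Tyb replicate 1 (red circle) lies below all WT libraries and the other 3 Dp1Tyb libraries lie above them.

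The 7 members of normal copy number had relative log2 fold changes from -0.13 for Fli1 to 0.06 for Etv6, and unadjusted p-values from 0.405 to 0.927 in edgeR's test. With spike-in scaling they ran from -0.0046 for Etv5 to 0.18 for Elk3 and Etv6, with p-values from 0.569 to 0.989. The sign of most of them changed with the library left out or with the scaling. In both scalings 0 of 7 had groups that did not overlap. Of all tested genes, 1.64% had Dp1Tyb libraries all above WT and 1.52% all below with relative scaling. With spike-in scaling these shares were 0.285% and 0.14%.

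Ets1, the closest relative of Ets2, had relative normalised read counts of 1939, 2410, 2126 and 2598 in WT, and 2883, 1954, 2059 and 2261 in Dp1Tyb. The estimate for Ets1 was 0.01 ± 0.14 (SE) on the log2 scale, and its relative interval of -0.31 to 0.34 does not reach the 0.58 of the copy number ratio, whereas its spike-in interval of -0.47 to 0.77 does. Fli1, the relative of Erg, had 323.0, 382.9, 370.2 and 297.1 in WT, and 404.0, 284.5, 304.4 and 264.5 in Dp1Tyb, a log2 fold change of -0.13 ± 0.16. Dp1Tyb replicate 1 was the highest Dp1Tyb library for both genes, where it was the lowest for Ets2 and Erg.

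Elk3, the Srf-associated factor with the highest level, had 2456, 2182, 2857 and 3134 in WT, and 3388, 2155, 2439 and 2889 in Dp1Tyb. Elf1 had 1712, 1190, 1674 and 1613 in WT, and 2304, 1304, 1349 and 1413 in Dp1Tyb. For both genes Dp1Tyb replicate 1 was the highest library of all, and the log2 fold changes were 0.03 ± 0.16 and 0.04 ± 0.20 (SE). The exons of Elk3, Elf1 and Etv6 overlap by 316, 327 and 135 bp with Cdk17, Wbp4 and Gm17089 on the opposite strand, and these had relative log2 fold changes of 0.01, 0.12 and -0.27.

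Etv4, an effector of fibroblast growth factor signalling, had 220.3, 277.4, 250.4 and 277.9 in WT, and 221.4, 194.1, 262.2 and 334.2 in Dp1Tyb. Etv5, its relative on the unduplicated part of chromosome 16, had 916.8, 862.4, 786.9 and 655.1 in WT, and 690.8, 757.0, 815.4 and 727.3 in Dp1Tyb. The Dp1Tyb values of Etv5 lay within the WT range, and its relative interval of -0.38 to 0.17 on the log2 scale did not reach the copy number ratio, whereas its spike-in interval of -0.64 to 0.63 did. The repressor Etv6 had 1179, 1757, 1563 and 1804 in WT, and 1369, 1700, 1642 and 1866 in Dp1Tyb, with both libraries numbered 1 lowest, as for Ets2 and Erg.

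**Figure D4:**
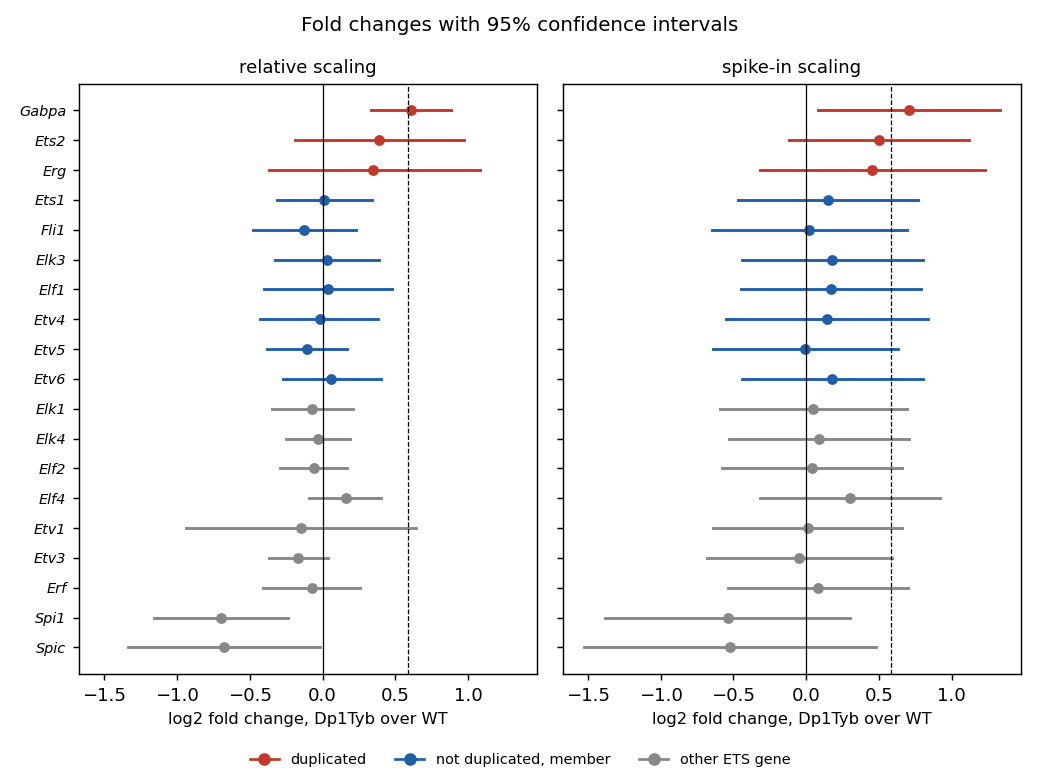
Log2 fold change of Dp1Tyb over WT (x axis) with 95% confidence intervals for the 3 duplicated members (red), the 7 other members (blue) and 9 further ETS genes (grey), with relative scaling on the left and spike-in scaling on the right. The solid line is no change and the dashed line the copy number ratio, 0.58. With relative scaling the interval of Gabpa, 0.33 to 0.88, excludes 0, and those of Spi1 and Spic lie below it.

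Across the 8 libraries Ets2 varied together with Erg and Etv6 in relative log2 CPM, counts scaled for library size, with a Pearson r of 0.877 and 0.872, and inversely with Elf1 (-0.607). The genes most like Ets2 were Timp1 (0.981), Ndel1 (0.979) and Srpx2 (0.977), none of them duplicated. Those most like Erg were Chsy3 (0.966), Zmynd19 (0.965) and Cltb (0.964), also not duplicated. Those most like Gabpa were Cbr3 (0.991), Gart (0.981) and Bach1 (0.975), and all of them are in the duplication. These correlations are descriptions over 8 points that share genotype and library effects, and the like genes were picked as the highest of 16470.

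Of 16 further ETS genes looked up, 9 were tested, and Ehf and Spdef had too few counts to test. Etv2, Fev, Spib, Elf3 and Elf5 were not found by symbol in the count table. Elk1, Elk4, Elf2, Elf4, Etv1, Etv3 and Erf had relative log2 fold changes from -0.17 to 0.16. Etv3, a repressor, was slightly lower in Dp1Tyb without overlap, 593.0 to 667.4 against 688.1 to 720.5, with a log2 fold change of -0.17 and an unadjusted p of 0.0959. The largest estimates were for Spi1 and Spic, factors of macrophages and their precursors. The relative normalised counts of Spi1 were 86.83, 81.54, 112.8 and 86.20 in WT, and 71.10, 44.60, 55.53 and 54.10 in Dp1Tyb. Its groups did not overlap, and its log2 fold change was -0.70 ± 0.21 (SE; unadjusted p = 0.00702, adjusted p = 0.994 in edgeR's test). Spic had -0.68 ± 0.30 (unadjusted p = 0.0446) at only 8 to 32 counts per library. In total 0 of the 9 were called, and 2 of 9 were lower at an unadjusted p under 0.05 with relative scaling, against 2.53% of tested genes. With spike-in scaling 0 of 9 were, against 0.316% of tested genes, and Spi1 had -0.54 (unadjusted p = 0.21). With relative scaling 2 of 9, Etv3 and Spi1, had Dp1Tyb libraries all below WT, against 1.52% of tested genes. With spike-in scaling this held for 0 of 9, against 0.14%.

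Leukocyte markers are given beside Spi1, and 0 of 11 were called in either scaling. All 11 markers had relative log2 fold changes below 0, with a median of -0.51 against 0.01 over all tested genes, and 7 of 11 were at an unadjusted p under 0.05, against 2.53% of tested genes. Ptprc, the pan-leukocyte surface phosphatase, named after its values were seen, had 285.7 to 314.7 normalised counts in WT and 147.9 to 172.4 in Dp1Tyb (log2 fold change -0.87, unadjusted p = 3.3e-05, adjusted p = 0.0903 in edgeR's test). The summed marker level was 324 to 434 CPM in WT and 183 to 345 CPM in Dp1Tyb, with overlapping ranges, and no marker was at 0. With spike-in scaling the median was -0.44 against 0.11 over all tested genes, with 1 of 11 lower at an unadjusted p under 0.05 against 0.316% of tested genes. In bulk RNA fewer cells of a type and less RNA per cell cannot be told apart. Fli1, Ets1 and Elf1 are also expressed in leukocytes, and the part of these cells in their values was not tested.

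Markers of endothelial cells, in which Erg is best known, did not separate the groups. Of 13 looked up, 8 were found by symbol in the count table and 7 were tested. In either scaling 0 were at an unadjusted p under 0.05. Of all tested genes, 4.27% were with relative and 1.17% with spike-in scaling. With relative scaling 5 of the 7 were below 0, with a median log2 fold change of -0.17 against 0.01 over all tested genes. The summed relative level was 38.9 to 61.3 CPM in WT and 36.1 to 82.1 in Dp1Tyb. Kdr, a VEGF receptor, had the highest counts of the 8, at 451 to 1870 per library, so it weighs most in this sum. Pecam1, an endothelial adhesion molecule, was counted 8 to 29 times. Kdr and Pecam1 were named after their values were seen. Among cartilage, epithelial, and neural crest and Schwann cell markers, 5, 3 and 3 were tested. Of these, 0 were at an unadjusted p under 0.05 in either scaling, against the same shares of all tested genes. All 5 cartilage and all 3 neural crest and Schwann cell markers tested had relative estimates below 0, with medians of -0.46 and -0.55 beside -0.51 for the leukocyte markers, and the epithelial median was -0.05. Cartilage markers summed to 73.1 to 158 in WT and 65.9 to 126 in Dp1Tyb.

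The partner proteins of the members did not pass the test either. The GABP partners Gabpb1 and Gabpb2 had relative log2 fold changes of -0.12 ± 0.14 and -0.10 ± 0.09 (SE). Gabpb1 had 612.4, 850.0, 859.1 and 888.4 in WT, and 642.3, 749.7, 783.6 and 785.0 in Dp1Tyb, so the partner subunit of the duplicated Gabpa overlapped between genotypes. Srf, its coactivators Mkl1 and Mkl2, and the AP-1 proteins Fos and Jun had estimates from -0.13 to 0.15. All 7 were tested, and 0 were at an unadjusted p under 0.05 in either scaling. Of all tested genes, 4.27% were with relative and 1.17% with spike-in scaling.

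Genes known to respond to GABP, most of which serve mitochondrial transcription and the respiratory chain, with Yap1 and Skp2 as the exceptions, had 0 of 11 at an unadjusted p under 0.05 in either scaling. Their median relative log2 fold change was 0.08 against 0.01 over all tested genes, and 9 of 11 were above 0, against 51.2% of tested genes. With spike-in scaling 11 of 11 were above 0, against 70.4%. Of all tested genes, 4.27% were at an unadjusted p under 0.05 with relative and 1.17% with spike-in scaling. Atp5b, the catalytic subunit of ATP synthase, had 0.15 ± 0.11 (SE), Cox4i1, a subunit of cytochrome oxidase, had 0.12 ± 0.12, and Yap1, a transcriptional coactivator of the Hippo pathway, had -0.02 ± 0.08.

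Of 10 genes known to respond to Ets1 and Ets2, 0 were called, 1 was higher and 1 lower at an unadjusted p under 0.05 with relative scaling, against 1.74% and 2.53% of tested genes. Their median was 0.18 against 0.01 over all tested genes. With spike-in scaling 1 was higher and 0 were lower, against 0.85% and 0.316% of tested genes, and the median was 0.31 against 0.11. The 3 with most reads were Tnc, an extracellular matrix protein, at 0.13 ± 0.37 (SE), Timp1 at 0.36 ± 0.34 and the protease Mmp3 at 0.41 ± 0.47, all with overlapping groups. The higher and the lower gene are named after their values were seen, and the higher one was the protease Mmp9. It had 39.21, 76.23, 31.67 and 38.54 normalised counts in WT, and 122.8, 90.40, 84.32 and 93.77 in Dp1Tyb, without overlap. Its log2 fold change was 1.07 ± 0.29 (unadjusted p = 0.0041, adjusted p = 0.823 in edgeR's test). The spike-in estimate was 1.22 ± 0.43 (unadjusted p = 0.00506), with overlapping groups. Of the 10, 1 had Dp1Tyb libraries all above WT with relative scaling, against 1.64% of tested genes. With spike-in scaling 0 did, against 0.285%. The lower one was Hmox1, haem oxygenase, at -0.48 ± 0.16 (unadjusted p = 0.0151) with relative and -0.39 ± 0.32 (unadjusted p = 0.22) with spike-in scaling.

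Genes that respond to ERK, among them the feedback inhibitors of the Dusp, Spry and Spred families, had 0 of 15 called and a median relative log2 fold change of 0.02, against 0.0182% called and a median of 0.01 over all tested genes. With relative scaling 1 of 15 was lower at an unadjusted p under 0.05, against 2.53% of tested genes, and with spike-in scaling 0 of 15 were. The 1 gene was Ccnd1, cyclin D1, at -0.42 ± 0.16 (SE; unadjusted p = 0.0279 in edgeR's test), and its groups overlapped, with 4060 to 6382 normalised counts in WT and 3263 to 4538 in Dp1Tyb. Egr1, an immediate early gene, had -0.09 ± 0.27, and Spred1 had -0.20 ± 0.11. Of 7 serum response genes, controlled by Srf and ternary complex factors such as Elk3, 0 were at an unadjusted p under 0.05. This held in either scaling, against 4.27% of tested genes with relative and 1.17% with spike-in scaling. Mcl1, Fosb and Ier2 had relative log2 fold changes of -0.15, -0.34 and 0.06.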

How the data were processed

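The authors trimmed reads with Trim Galore, mapped them with TopHat2 2.0.12 to GRCm38 with the spike-in sequences, dropped reads with several alignments and counted reads per gene with htseq-count. The deposited table holds raw counts per gene for 19493 endogenous genes and 63 spike-ins in 8 libraries. The annotation release is not given in the sources used here. Deposited normalised counts and the authors' DESeq2 1.6.3 comparison (means, fold changes, p-values) were not used.

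Genes kept by filterByExpr (16470) were tested by edgeR 4.0.16's two-sided quasi-likelihood test in R 4.3.3, with Benjamini-Hochberg adjustment over all of them and a threshold of 0.05. Spike-in scaling used median-of-ratios factors over spike-ins, and relative scaling used TMM over endogenous genes. The biological coefficient of variation was 0.351 and 0.232. Ratios used a pseudocount of 0.5. RPKM used GENCODE M21 exon lengths, with 19318 gene IDs matched and 175 not. Mkl1 and Mkl2 are listed under their current symbols Mrtfa and Mrtfb. Alternatives were DESeq2 1.42.0, other factors and filters, a pseudocount of 5, the replicate number as a block and leaving out libraries. The fits were tested on simulated data. Libraries of 1 group differed by a chi-square per degree of freedom of 10.4 to 95.7 over genes, so replicate error exceeded counting error.

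All 10 members were named with a value in every library, and of the ERK, GABP, Ets1 and Ets2 and serum response lists the genes called and the 3 with most reads. All tested ETS genes and partners were named. Mmp9, Hmox1, Ptprc, Kdr and Pecam1 were named after their values were seen. The members and lists were chosen with earlier results of these data known.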

Additional observations from a re-analysis of the deposited data

Results flagged for a closer look

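With relative scaling Ets2 in Dp1Tyb replicate 1 lay far below the rest of its group, at 1254 normalised counts against 2391 to 2433. Elf1 in the same library lay far above, at 2304 against 1304 to 1413. The log2 ratio of Ets2 over Ets1 there was -1.2 against 0.08 to 0.30. In each case the gap to the nearest library, divided by the range of the group, exceeded Dixon's 95% critical value for 4 libraries. These are 3 of 46 groups examined, and chance gives about 1 in 20. All are of Dp1Tyb replicate 1, and the Ets2 count enters the first and the last, so they are not independent.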

How the results depend on the processing

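Leaving out 1 library at a time, spike-in scaling called 2 to 8 genes and relative scaling 1 in every case, against 2 and 3 with all libraries. A minimum of 10 counts in every library gave 0 calls in both scalings, which tests fewer genes. DESeq2 called 52 genes with relative scaling. With both libraries numbered 1 left out, 1 was called with relative scaling. The cause of the other changes was not tested.

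Leaving out 1 library at a time, the log2 ratio difference of Erg over Fli1 ran from 0.20 to 0.85, that of Ets2 over Ets1 from 0.22 to 0.74 and that of Gabpa over Gabpb1 from 0.68 to 0.77. Without both libraries numbered 1 the Gabpa difference was 0.72 with an exact permutation p of 0.1, the smallest possible there. Gabpa kept its direction in all alternatives run, with relative log2 fold changes from 0.51 to 0.66 and adjusted p-values from 0.00973 to 1.00, and with spike-in scaling from 0.59 to 0.88. Ets2 ran from 0.21 to 0.57 and 0.29 to 0.76, and Erg from 0.09 to 0.58 and 0.18 to 0.65, all above 0. No departure of these from a fold change of 1.5 was found without any 1 library.

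The members of normal copy number lie near 0, and each changed sign under some alternative in at least 1 scaling. Leaving out 1 library at a time, the spike-in estimates ran from -0.04 to 0.36 for Ets1, -0.20 to 0.22 for Fli1, -0.0011 to 0.41 for Elk3, -0.14 to 0.40 for Elf1, -0.16 to 0.38 for Etv4, -0.14 to 0.19 for Etv5 and -0.02 to 0.38 for Etv6. The relative ones ran from -0.12 to 0.09 for Ets1, -0.09 to 0.13 for Elk3, -0.19 to 0.13 for Elf1, -0.18 to 0.09 for Etv4 and -0.05 to 0.14 for Etv6, while Fli1 (-0.27 to -0.05) and Etv5 (-0.19 to -0.04) stayed below 0. With spike-in TMM factors Etv5 was 0.04. With upper-quartile factors Ets1 was -0.03, Elk3 -0.01 and Elf1 -0.0011. Without both libraries numbered 1, Ets1 was -0.04, Fli1 -0.14 and Etv5 0.16 with spike-in scaling, and Ets1 -0.18, Elk3 -0.12, Elf1 -0.14 and Etv5 4.4e-05 with relative scaling.

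The labels and methods give the replicate numbers no meaning. Deviations from the group means correlated at 0.369, 0.524, 0.029 and 0.326 between same-numbered libraries, and all but WT replicate 3 and Dp1Tyb replicate 3 correlated best with their own number, a hint from the data that some pairs share more. With the replicate number as a block, spike-in scaling called 9 genes and relative scaling 7, Fli1 was -0.04 in the former, and the paired difference of Gabpa over Gabpb1 was 0.72 with an exact sign-flip p of 0.125, the smallest that 4 pairs allow. The block called none of the 10 members. In edgeR's test with the block and relative scaling, Ets2 was 0.39 (unadjusted p = 0.00138, adjusted p = 0.209) and Gabpa 0.62 (unadjusted p = 0.000163, adjusted p = 0.0769), and with spike-in scaling the unadjusted p-values were 0.0434 and 0.00345.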
